A study of Mus musculus with 6 samples.

Results

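Receptor tyrosine phosphatases were examined in dendritic epidermal T cells (DETC), the γδ T cells that reside in mouse epidermis, from mice with and without a working allele of Ahr. Ahr encodes the aryl hydrocarbon receptor, a transcription factor that is activated by tryptophan metabolites and pollutants. The 10 genes described were selected by name from the annotated array table: Ptprs, Ptprf, Ptprd, Ptprc, Ptprj, Ptprk, Ptpra, Ptpre and Ptpro, which encode receptor tyrosine phosphatases, and Ptprcap, which encodes a protein bound to one of them. They are 10 of the 20300 genes tested, with 1 probe set each. Ptprs was singled out against the others with the measured difference between Ahr-ko and Ahr-het already known, so its values are a description and carry no test.

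RNA was measured on 6 Clariom S Mouse arrays, 3 of Ahr-ko DETC and 3 of Ahr-het DETC. Ahr-ko mice carried the knockout allele of the B6.129-Ahrtm1Bra/J strain on both chromosomes. Ahr-het mice were heterozygous littermates, so the control cells also carried 1 knockout allele. Mice of both genotypes were female and male, 2 weeks old and kept under specific pathogen-free conditions, and each RNA was pooled from 2 to 3 mice. Epidermal cells of back and belly were released with trypsin and sorted by antibodies to the γδ TCR and its Vγ3 chain, which DETC carry, to a purity of 90 to 98%. The share of DETC among live cells of the epidermis was 2 to 4% in Ahr-ko mice and 10 to 15% in Ahr-het mice. The knockout was constitutive, so neighbouring epidermal cells lacked Ahr as well. The labels do not say whether pools came from separate litters, so p-values measure only the spread between these pools.

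Receptor tyrosine phosphatases remove phosphate from tyrosines inside the cell and carry an extracellular part that can bind ligands. Ptprs (PTPσ), Ptprf (LAR) and Ptprd (PTPδ) form the LAR subfamily, whose immunoglobulin and fibronectin domains bind heparan and chondroitin sulfate proteoglycans and adhesion proteins. Ptprc is CD45, the abundant phosphatase of leukocytes that removes the inhibitory phosphate of Src family kinases and thereby permits antigen receptor signalling. Ptprs is also known as an inhibitory receptor of plasmacytoid dendritic cells, and Ptprf and Ptprk are known from epithelia.

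The array values are on the log2 scale. As a background limit for each array served the level that 95% of 1391 genes for odorant and pheromone receptors stayed under. It was between 7.55 and 7.63 in the Ahr-ko pools and between 7.46 and 7.56 in the Ahr-het pools. Genes over the limit on all 3 arrays of a genotype count as above background there. By this measure 8 of the 10 genes were above background in Ahr-ko DETC and 9 in Ahr-het DETC. With the limit at the 99th percentile the counts were 6 and 7. Probe sets differ in brightness, so levels were compared between genotypes and not between genes.

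The arrays correlated at 0.972 to 0.995 with each other, none held identical values, and between 57.4 and 60.2% of genes lay above the limit on each. All 11 DETC and T cell defining genes, Cd3e, Cd3d, Cd3g, Itgae and Klrk1 among them, were above background in both genotypes, and 1 of them, Klre1, passed the test (log2 difference 0.55), a call that was lost in 4 of 6 fits with an array left out (adjusted p up to 0.131). The genotypes did not overlap in 7 of the 11, and in 18.7% of all genes. In limma 4 of the 11 were at an unadjusted p under 0.05, and 2685 of all 20300 genes. Besides Klre1 these were Cd7 (-0.35), Cd2 (0.45) and Cd3e (-0.30). Ahr itself measured 10.00, 10.40 and 10.39 in Ahr-ko and 10.77, 10.62 and 10.72 in Ahr-het DETC (difference -0.44, adjusted p = 0.177, limma). Where its probes lie relative to the disrupted exon is not given in the sources used here, so this does not check the genotype. Across all genes, limma called 638 of 20300 at an adjusted p under 0.05, which is 3.14%. With the replicate number as a block it called 1538, and the calls of the members were the same. Of all genes 1.57% were called lower and 1.58% were called higher in Ahr-ko, and the median log2 difference was 0.0038.

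Promoter sequences are shown for Ptprs and Ptprf, the members with the lowest values in Ahr-ko relative to Ahr-het, and for Ptprj as a bright member whose difference did not pass the test. AHR binds DNA at the core sequence GCGTG. Each line holds the 250 bases before a RefSeq transcription start in GRCm38.p6, written 5′ to 3′ on the strand of the gene, with GCGTG or its reverse complement CACGC in capitals.
Ptprs upstream start, chr17:56476481-56476730, minus strand: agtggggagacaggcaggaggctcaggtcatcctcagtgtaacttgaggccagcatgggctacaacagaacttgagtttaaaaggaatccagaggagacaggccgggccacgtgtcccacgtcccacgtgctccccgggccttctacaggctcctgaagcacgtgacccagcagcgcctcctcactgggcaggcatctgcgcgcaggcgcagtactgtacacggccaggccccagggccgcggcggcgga
Ptprs downstream start, chr17:56462222-56462471, minus strand: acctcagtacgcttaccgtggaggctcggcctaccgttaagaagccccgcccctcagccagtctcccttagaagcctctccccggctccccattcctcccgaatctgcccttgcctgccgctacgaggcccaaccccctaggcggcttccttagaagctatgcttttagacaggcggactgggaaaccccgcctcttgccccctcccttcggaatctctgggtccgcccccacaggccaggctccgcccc
Ptprf, chr4:118291398-118291647, minus strand: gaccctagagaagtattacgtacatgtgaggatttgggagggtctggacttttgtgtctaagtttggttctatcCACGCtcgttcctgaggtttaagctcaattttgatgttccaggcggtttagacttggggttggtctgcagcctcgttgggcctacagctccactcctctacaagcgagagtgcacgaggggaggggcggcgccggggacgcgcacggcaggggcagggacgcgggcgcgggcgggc
Ptprj upstream start, chr2:90580596-90580845, minus strand: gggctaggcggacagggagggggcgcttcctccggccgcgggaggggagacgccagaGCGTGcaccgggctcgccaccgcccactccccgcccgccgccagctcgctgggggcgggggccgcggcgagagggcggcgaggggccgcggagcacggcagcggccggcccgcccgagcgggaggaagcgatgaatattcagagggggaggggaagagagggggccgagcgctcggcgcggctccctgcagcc
Both Ptprs windows held no GCGTG on either strand. The Ptprf window held 1, which began at position -176 from the start, and the Ptprj window shown held 1, which began at position -193. The other Ptprj window (chr2:90479175-90479424) held 0. Ptpre held 1 in the second of its promoters, at position -72, whereas the windows of Ptprc, Ptpra, Ptpro and Ptprk held none. Over the whole receptor phosphatase family and Ptprcap, 17 genes were matched with 27 promoters (all members but Ptprd and Ptprcap among them), of which 11 held the core. In the whole table it was found in 28.2% of 32851 windows of the same length. A match in these letters is a description and not a binding site.

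Ptprs was lower in Ahr-ko DETC, on all arrays and with little spread. It measured 10.63, 10.58 and 10.54 on the Ahr-ko arrays, against 12.93, 12.96 and 12.86 on the Ahr-het arrays. The lowest Ahr-het array lay 2.23 above the highest Ahr-ko array, and the arrays of each genotype spanned less than 0.10. Ptprs averaged 10.58 +/- 0.045 in Ahr-ko and 12.91 +/- 0.050 in Ahr-het DETC (SD, n = 3 each). The log2 difference was -2.34 (SE 0.096), which is 5.05-fold lower in Ahr-ko. With equal replicate numbers set against each other, the differences were -2.30, -2.38 and -2.32. Ptprs stood 2.99 +/- 0.076 above the background limit in Ahr-ko and 5.39 +/- 0.088 above it in Ahr-het DETC, so the gene was measured well above background in both. Ordered by log2 difference, Ptprs was the 28th lowest of the 20300 genes. In bulk RNA, fewer cells that express a gene and less RNA per cell cannot be told apart.

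**Figure D1:**
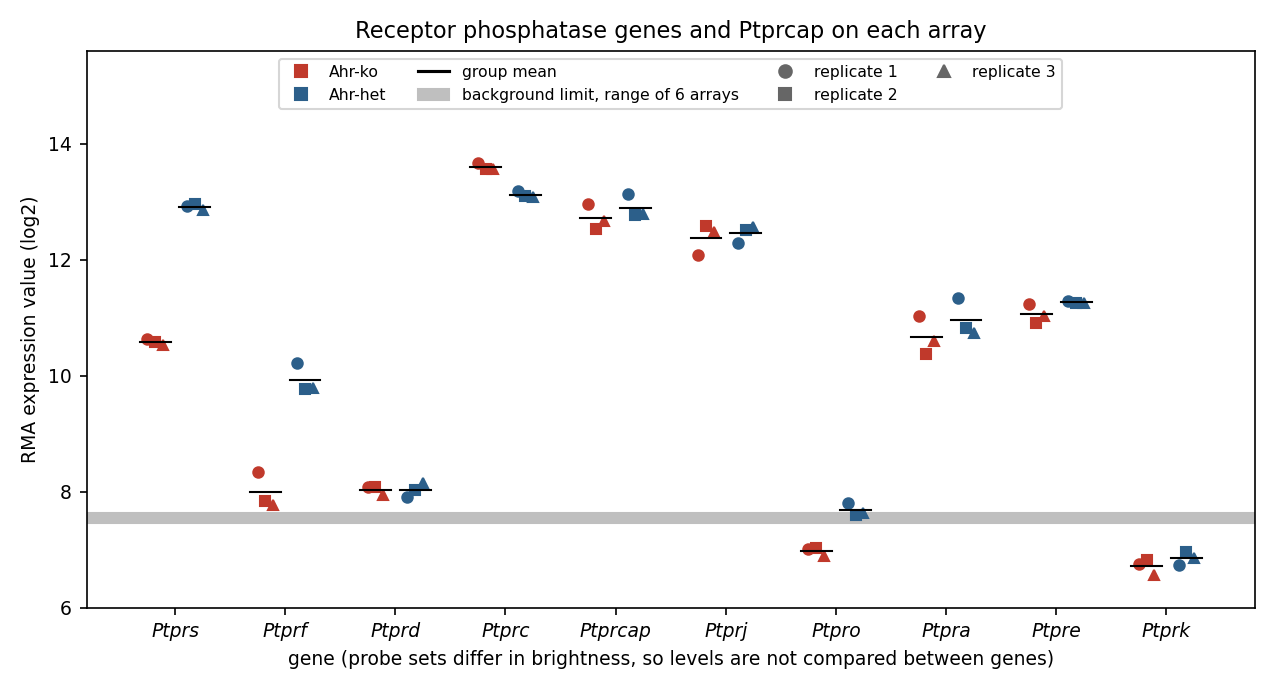
Log2 expression value (vertical axis) of the 10 genes on each array, with Ahr-ko (red) left of Ahr-het (blue), a marker shape for each replicate number and a bar at the mean of 3 arrays. The grey band is the range of the background limit over the 6 arrays. Ptprs and Ptprf separate the genotypes by over 1 log2 unit, and Ptprk lies below the band on all arrays.

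Ptprf, which encodes LAR, was also lower in Ahr-ko DETC, and here the level came down close to background. It measured 8.34, 7.85 and 7.78 on the Ahr-ko arrays, against 10.23, 9.77 and 9.79 on the Ahr-het arrays, with no overlap. The replicate 1 array was the highest in each genotype. Its means were 7.99 +/- 0.30 in Ahr-ko and 9.93 +/- 0.26 in Ahr-het DETC (SD, n = 3 each), a log2 difference of -1.94 (SE 0.19, 95% interval -2.37 to -1.52, limma adjusted p = 0.000854) or 3.84-fold lower. The differences between equal replicate numbers were -1.89, -1.93 and -2.01. In Ahr-ko DETC the gene stood only 0.40 +/- 0.34 above the limit, with 1 of 3 arrays above the 99th percentile, while in Ahr-het DETC it stood 2.41 +/- 0.31 above it. Leaving out each array in turn gave differences of -2.12 to -1.79, and the call was kept each time.

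Ptprd, the remaining member of the LAR subfamily and known chiefly from neurons, did not share this pattern. It measured 8.09, 8.08 and 7.94 in Ahr-ko and 7.91, 8.03 and 8.16 in Ahr-het DETC, and the genotypes overlapped. The difference was 0.0014 (SE 0.11, 95% interval -0.25 to 0.26, limma adjusted p = 0.997). Ptprd exceeded the background limit by 0.45 +/- 0.097 in Ahr-ko and by 0.51 +/- 0.074 in Ahr-het DETC, but reached the 99th percentile on none of the 6 arrays.

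Ptprc (CD45) was higher in Ahr-ko DETC by a small step that all arrays shared. The Ahr-ko arrays gave 13.66, 13.56 and 13.56, against 13.19, 13.10 and 13.08 on the Ahr-het arrays, without overlap. The means were 13.59 +/- 0.059 in Ahr-ko and 13.12 +/- 0.058 in Ahr-het DETC, and the log2 difference was 0.47 (SE 0.098, 95% interval 0.24 to 0.70, limma adjusted p = 0.0437), or 1.39-fold. The differences between equal replicate numbers were 0.47, 0.46 and 0.48. The call lay near the threshold. It was lost whichever array was left out (0.44 to 0.50, adjusted p = 0.0615 to 0.189) and when all probe sets of the array entered the fit (adjusted p = 0.0788).

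Ptprcap encodes the CD45-associated protein, a small membrane protein of lymphocytes without phosphatase activity. It measured 12.96, 12.53 and 12.66 in Ahr-ko and 13.13, 12.77 and 12.79 in Ahr-het DETC, and the genotypes overlapped. The difference of -0.18 (SE 0.15, 95% interval -0.53 to 0.17, limma adjusted p = 0.720) did not pass the test.

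Ptprj (CD148) and Ptpro belong to the subfamily with only fibronectin repeats outside the cell. Ptprj, which in leukocytes can act on Src family kinases as CD45 does, measured 12.09, 12.57 and 12.48 in Ahr-ko and 12.28, 12.52 and 12.56 in Ahr-het DETC. The genotypes overlapped and the difference was -0.074 (SE 0.15, 95% interval -0.42 to 0.28, limma adjusted p = 0.904). The replicate 1 array was the lowest in both genotypes.

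Ptpro, first described in the podocytes of the kidney, was lower in Ahr-ko DETC, yet close to background throughout. It measured 7.02, 7.03 and 6.90 in Ahr-ko, below the limit on all arrays, and 7.81, 7.59 and 7.63 in Ahr-het DETC, above it on all arrays by 0.15 +/- 0.17. The means were 6.98 +/- 0.073 in Ahr-ko and 7.68 +/- 0.11 in Ahr-het DETC. The fitted difference was -0.70 (SE 0.11, 95% interval -0.94 to -0.45, limma adjusted p = 0.0102). Since the Ahr-ko value is only a bound, Ptpro was at least 1.07-fold lower in Ahr-ko, and none of the 6 arrays exceeded the 99th percentile of the background genes. The call was lost without the Ahr-ko replicate 3 array (-0.66, adjusted p = 0.0677).

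Ptpra and Ptpre are close relatives with short extracellular parts, and Ptpra is known to activate Src and Fyn by removing their inhibitory phosphate. Ptpra measured 11.04, 10.37 and 10.61 in Ahr-ko and 11.34, 10.82 and 10.74 in Ahr-het DETC. The genotypes overlapped, and the difference of -0.29 (SE 0.21, 95% interval -0.78 to 0.19) did not pass the test (limma adjusted p = 0.650). Within equal replicate numbers the differences were -0.30, -0.44 and -0.13. Ptpre measured 11.24, 10.91 and 11.03 in Ahr-ko and 11.29, 11.25 and 11.25 in Ahr-het DETC. Its genotypes were apart by only 0.0043, and the difference was -0.20 (SE 0.12, 95% interval -0.47 to 0.060, limma adjusted p = 0.533).

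Ptprk, a homophilic adhesion receptor of epithelia, was below the limit on all 6 arrays. It measured 6.75, 6.83 and 6.57 in Ahr-ko and 6.74, 6.95 and 6.85 in Ahr-het DETC, with a difference of -0.13 (SE 0.11, 95% interval -0.40 to 0.13, limma adjusted p = 0.720).

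Of the 9 members other than Ptprs, 2 were called lower in Ahr-ko (Ptprf and Ptpro), 1 was called higher (Ptprc) and 6 did not pass the test. Of all 20300 genes 1.57% were called lower and 1.58% were called higher. The genotypes did not overlap in 4 of the 9 (Ptprf, Ptprc, Ptpre and Ptpro), and in 18.7% of all genes. Their median difference was -0.18, beside 0.0038 over all genes. With the list chosen on known results, these counts are a description. Within the LAR subfamily, Ptprs and Ptprf were low in Ahr-ko, while the interval of Ptprd spanned 0.

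**Figure D2:**
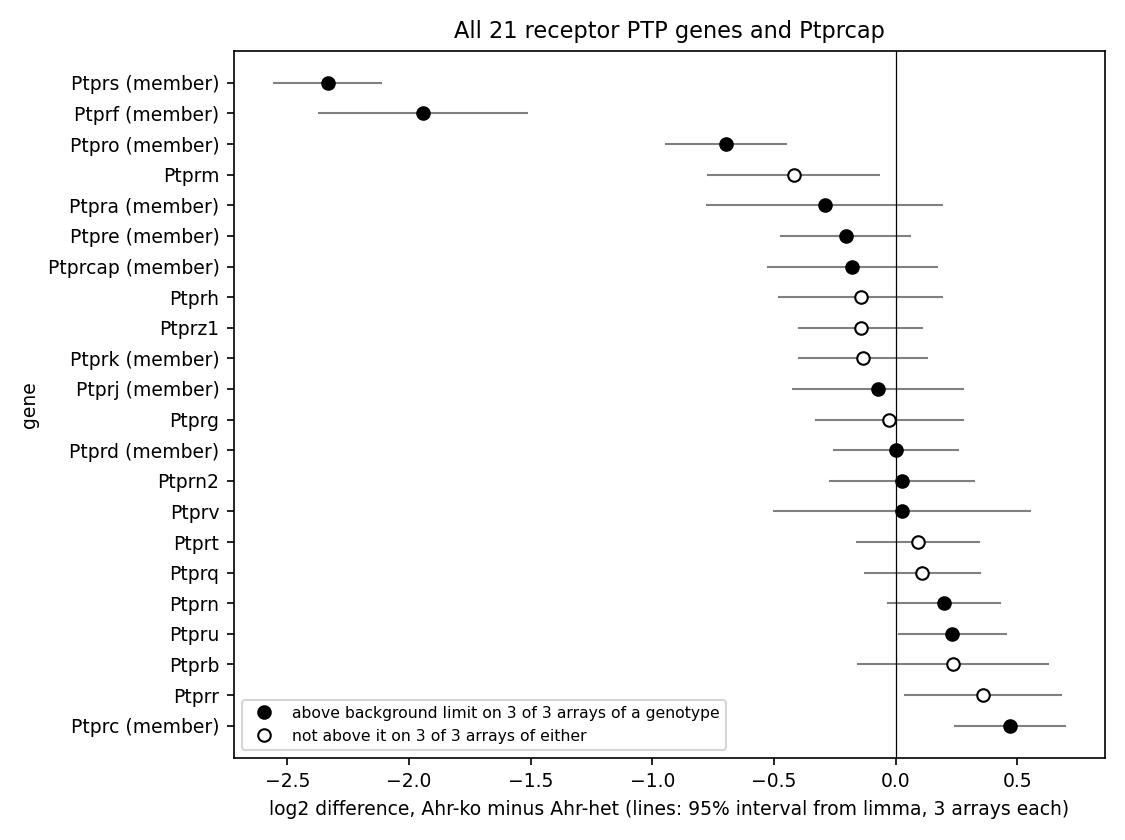
Log2 difference, Ahr-ko minus Ahr-het (horizontal axis), of the 21 receptor PTP genes and Ptprcap, with the 95% interval of limma from 3 arrays per genotype as a line. Filled points are above the background limit on all 3 arrays of at least 1 genotype. Ptprs (-2.34) and Ptprf (-1.94) stand to the left of all others, and Ptprc (0.47) is furthest to the right.

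The other 12 receptor PTP genes of the mouse, which were taken from the nomenclature, showed differences of -0.42 to 0.36, with a median of 0.059. Of all 20300 genes 2685 were at an unadjusted p under 0.05 in limma. Of these 12, none was called by limma, 3 were at an unadjusted p under 0.05 and a fit with array weights called 1 of them. These 3, named here after their values were seen, were Ptprm (-0.42), Ptpru (0.23) and Ptprr (0.36), with adjusted p = 0.276, 0.346 and 0.310 in limma, and Ptprm was the one called with array weights. Only 4 of the 12 were above background, the same number in each genotype, and they did not include Ptprm and Ptprr. Ptpru, an adhesion receptor related to Ptprk, averaged 8.91 +/- 0.046 in Ahr-ko and 8.68 +/- 0.032 in Ahr-het DETC. Ptprn, a phosphatase-like protein of secretory granules without enzyme activity, averaged 8.82 +/- 0.095 in Ahr-ko and 8.63 +/- 0.0067 in Ahr-het DETC, a difference of 0.20 (limma adjusted p = 0.475). Its relative Ptprn2 and the bone and testis phosphatase Ptprv differed by 0.026 each. Over the 20 receptor PTP genes other than Ptprs, 2 were called lower, 1 was called higher and 17 did not pass the test, with a median difference of -0.012. The shares over all genes were 1.57% lower and 1.58% higher.

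The non-receptor phosphatases were compared as the rest of the classical family. Of 17 tested, 0 were called higher, 1 was called lower and 5 were at an unadjusted p under 0.05, with a median difference of -0.039. Among all 20300 genes 638 were called and 2685 were at an unadjusted p under 0.05. The called gene was Ptpn12 (PTP-PEST), which acts on focal adhesion and cytoskeletal proteins. It measured 10.80, 11.02 and 10.93 in Ahr-ko and 11.89, 12.04 and 11.87 in Ahr-het DETC, a difference of -1.02 (SE 0.11, limma adjusted p = 0.00146). The arrays did not overlap, and the call was kept with any array left out.

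Src family kinases and their regulators are substrates or antagonists of CD45, CD148 and Ptpra. Of 11 listed genes 10 were tested (Lck was not analysed here), and 1 was called higher, 2 were called lower and 7 did not pass the test, with a median difference of 0.079. The share called over all genes was 3.14%. Fgr, a Src family kinase best known from myeloid cells, measured 8.89, 7.84 and 8.46 in Ahr-ko and 6.26, 6.23 and 5.94 in Ahr-het DETC. As the Ahr-het arrays were all below the limit, Fgr was at least 1.83-fold higher in Ahr-ko (limma adjusted p = 0.00155). Matk, a relative of Csk that phosphorylates the inhibitory tyrosine of Src kinases, measured 8.75, 8.46 and 8.64 in Ahr-ko and 10.42, 10.54 and 10.40 in Ahr-het DETC. Its difference was -1.84 (SE 0.11, limma adjusted p = 7.34e-05). Src itself measured 8.41, 8.49 and 8.36 in Ahr-ko and 9.28, 9.19 and 9.32 in Ahr-het DETC, a difference of -0.84 (SE 0.10, limma adjusted p = 0.00254). None of these 3 genes overlapped between genotypes, and all 3 calls were kept with any array left out.

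The binding partners of the LAR subfamily were read from 3 lists, of which only the proteoglycan list held a called gene. For comparison, 3.14% of all genes were called, and 2685 of 20300 were at an unadjusted p under 0.05 in limma. Of the cytoplasmic partners (liprins and Trio) 7 of 8 were tested, Ctnnb1 was not analysed here, and 0 were called by limma with 2 at an unadjusted p under 0.05. The brightest were Trio, a guanine nucleotide exchange factor bound by LAR, and the liprin gene Ppfia1, with differences of -0.041 (SE 0.12) and -0.30 (SE 0.38). The 2 at an unadjusted p under 0.05, named after their values were seen, were the liprin genes Ppfia4 (-0.92, limma adjusted p = 0.0829) and Ppfibp1 (-0.54, limma adjusted p = 0.160). In Ahr-ko DETC Ppfia4 was above the limit on 2 of 3 arrays and Ppfibp1 on 1 of 3, so these sizes are as fitted and not measured. Of 19 proteoglycan genes whose products can present heparan or chondroitin sulfate to the LAR subfamily, 0 were called higher, 1 was called lower and 2 were at an unadjusted p under 0.05. The called gene, Cspg4 (NG2), measured 10.40, 9.33 and 9.69 in Ahr-ko and 11.72, 11.21 and 11.16 in Ahr-het DETC, a difference of -1.56 (SE 0.27, limma adjusted p = 0.0192). That call was lost in 4 of 6 fits with an array left out (adjusted p = 0.0527 to 0.106). Of 12 genes for synaptic adhesion partners, such as the Slitrk genes, 0 were called by limma and 0 were at an unadjusted p under 0.05. Lrfn4 and Lrrc4b, the brightest of them, differed by -0.060 (SE 0.11) and -0.083 (SE 0.18).

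**Figure D3:**
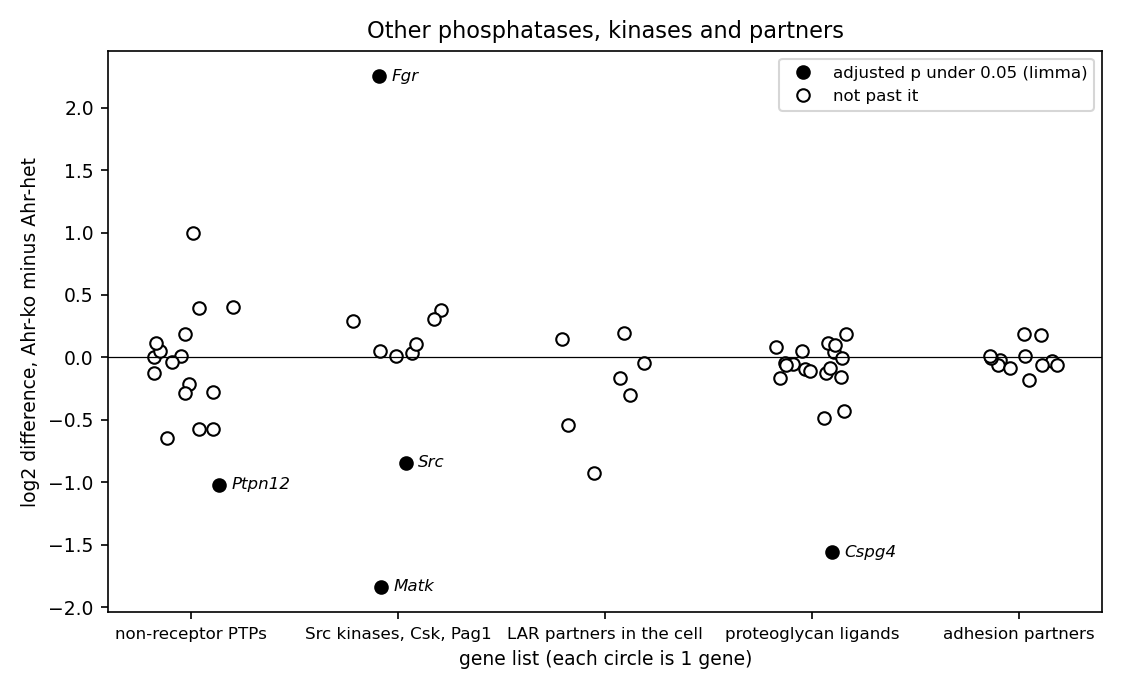
Log2 difference, Ahr-ko minus Ahr-het (vertical axis), of each tested gene in 5 lists around the receptor phosphatases, with filled circles for an adjusted p under 0.05 in limma. Fgr (2.25 as fitted, with Ahr-het below background) is above 0, and Src, Ptpn12, Cspg4 and Matk are below it.

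The genes whose profile over the 6 arrays lay nearest to Ptprs were sought among 11733 genes above background in a genotype, by Euclidean distance of mean-centred log2 values. Among the 5 nearest were Il10ra (distance 0.329), Rnf39 (0.335) and Coro2a (0.427). Their Pearson's r with Ptprs was 0.989 to 0.994, a description over 6 arrays in which all of these genes share a step between genotypes. Il10ra, the ligand-binding chain of the interleukin-10 receptor, was at most 8.10 on the Ahr-ko arrays and at least 10.14 on the Ahr-het arrays, a difference of -2.27. Its Ahr-ko values were above the limit but close to it, below the 99th percentile of the background genes on each array. This limits how low Il10ra could be measured there, and with it the difference and the distance. The predicted gene Gm10406 also fell among the 5, but was below the limit on all Ahr-ko arrays, so its distance is not measured. It was at least 3.90-fold lower there. Rnf39 and Coro2a, a RING finger and a coronin gene, differed by -2.26 and -2.25. Among the members, Ptprf was nearest to Ptprs (distance 0.704, r 0.977). Ptprc ran the opposite way (distance 3.44, r -0.976). Ptpro and Ptprk, below the limit on all Ahr-ko arrays, have no measured distance, and the others lay at distances of 2.58 to 2.87.

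**Figure D4:**
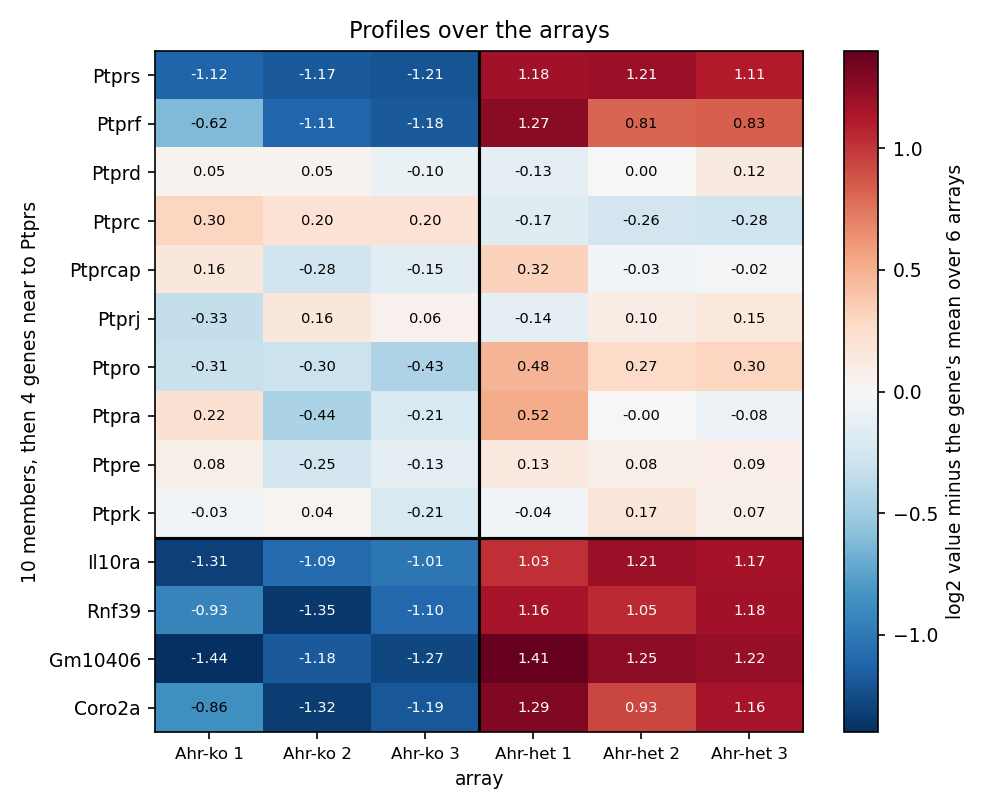
Log2 value minus the mean of that gene over 6 arrays (colour and printed value), for the 10 members and 4 of the 5 genes nearest to Ptprs (rows) on each array (columns, Ahr-ko left of Ahr-het). Ptprs, Ptprf and these 4 genes are low on all Ahr-ko and high on all Ahr-het arrays, and Ptprc shows a small step the other way. Ahr-ko values of Ptpro and Gm10406 and all values of Ptprk are below the background limit.

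Lists of genes used as markers of other cells were read beside these results. In bulk RNA, transcripts of such a gene from other cells and from DETC themselves cannot be told apart. Over all genes, 1.57% were called lower and 1.58% were called higher, and 2685 of 20300 were at an unadjusted p under 0.05 in limma. Of 12 keratinocyte markers 1 was called lower in Ahr-ko (Dsp, -1.22) and 11 did not pass the test, Krt5 (0.11) and Krt14 (-0.027) among them. Their summed level, on the log2 scale, was 14.17 to 14.22 in Ahr-ko and 14.40 to 14.41 in Ahr-het DETC, and only Dsg3 was below the limit on all arrays. A sum of linear values mostly follows its brightest genes. These were Cdh1 (mean 13.42 in Ahr-ko and 13.49 in Ahr-het DETC) and Dsp (10.71 and 11.92). Whether their RNA came from keratinocytes or from DETC was not tested, so the summed level is not a measure of keratinocyte content. The median difference of the 12 markers was 0.019. As a covariate served the mean of the log2 marker values, not the summed level. This mean was 9.29 to 9.60 in Ahr-ko and 9.46 to 9.69 in Ahr-het DETC, so the genotypes overlapped. The fit therefore does not adjust for the gap in summed level. With this covariate the difference was -2.36 for Ptprs, -2.21 for Ptprf, -0.75 for Ptpro and 0.41 for Ptprc. In that fit Ptpra (-0.61, adjusted p = 0.00746) and Ptprcap (-0.39, adjusted p = 0.0474) were called as well. Of 8 plasmacytoid dendritic cell markers 1 was called lower (Bst2, -1.28), their summed level was 12.08 to 12.31 in Ahr-ko and 12.54 to 12.74 in Ahr-het DETC, and 3 of the 8 (Siglech, Ccr9 and Pacsin1) were below the limit on all 6 arrays. Bst2, Il3ra and Cox6a2 were above it on all arrays. The brightest genes in this sum were Bst2 (mean 10.62 in Ahr-ko and 11.90 in Ahr-het DETC) and Il3ra (10.89 and 10.37), which differed in opposite directions. The median difference of the 8 was 0.056. Besides Bst2, those at an unadjusted p under 0.05 were Il3ra (0.52, adjusted p = 0.102) and Ccr9 (-0.66, adjusted p = 0.0808).

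Of 6 αβ T cell markers 3 were called higher in Ahr-ko (Cd6 by 1.91, Cd8a by 1.67 and Cd8b1 by 0.68 on the log2 scale) and 1 was called lower (Themis, -0.61). Cd8a was above the limit on 2 of 3 Ahr-het arrays, so its size is as fitted and not measured. Cd6 was close to the limit on the Ahr-het arrays (7.94, 7.64 and 7.72), below the 99th percentile of the background genes on each. The shares over all genes were 1.58% higher and 1.57% lower, with 2685 of 20300 genes at an unadjusted p under 0.05 in limma. The summed level was 12.13 to 12.19 in Ahr-ko and 12.11 to 12.23 in Ahr-het DETC. Themis was the brightest gene in this sum (mean 11.03 in Ahr-ko and 11.64 in Ahr-het DETC). The mean of the log2 values of the list, some of them below the limit, did not overlap, with 9.07 to 9.13 in Ahr-ko and 8.59 to 8.66 in Ahr-het DETC. Of 5 tested NK cell and ILC markers 3 were called higher, namely Eomes (at least 6.54-fold), Ncr1 (above the limit on 2 of 3 Ahr-ko arrays and on 0 of 3 Ahr-het arrays, so that its size is not measured) and Klri2 (0.78). Klrb1c, which encodes NK1.1, differed by -0.83 and did not pass the test (adjusted p = 0.308), and Il1rl1 was below the limit on all arrays. The list had a summed level of 11.28 to 11.89 in Ahr-ko and 10.81 to 11.61 in Ahr-het DETC. The mean of its log2 values, some of them below the limit, was 8.24 to 8.85 and 7.35 to 7.61. Of the markers called here, Dsp, Bst2 and Eomes kept the call with any array left out. The lists of Langerhans cells (7 genes), B cells (5), fibroblasts (5), endothelial cells (5), melanocytes (5) and mast cells (5) had 0 genes called by limma, with 2, 0, 0, 0, 1 and 0 at an unadjusted p under 0.05. The part of these markers in the differences of the receptor phosphatases was not tested. The covariate fit took in keratinocyte markers only, by a mean level that overlapped between genotypes.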

How the data were processed

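RNA of sorted DETC was hybridised to 6 Clariom S Mouse arrays, 3 Ahr-ko and 3 Ahr-het, and 10 ng of total RNA went into each labelling. Genotypes and replicate numbers came from the sample labels. The authors deposited log2 expression values made by RMA over all arrays, which forces a common distribution on them and compresses differences near background. For the annotation and build, not given in the sources used here, only the names in the files were used. A second deposited table gave gene names. Its columns of the authors' own comparison (fold changes, p-values and scores from limma 3.38.3) were not used.

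Of 29129 probe sets, 8694 that name no gene were dropped, and the brightest stood for each of 86 genes with several, which left 20300 genes. Ahr-ko was set against Ahr-het with limma 3.58.1 (lmFit, then eBayes, R 4.3.3), with Benjamini-Hochberg adjustment over all genes and a threshold of 0.05. The number of arrays limits the precision. A gene below the limit on all arrays of its dimmer genotype is given as at least N-fold, the brighter mean against the mean limit of the dimmer arrays. A summed level is the log2 of the sum of linear values of a list.

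Members, lists and tests were chosen with earlier results of these data known. Named are all members, receptor PTP genes called or above the limit, up to 4 called genes of each other list (otherwise the 2 brightest) and the 5 genes nearest to Ptprs, of which 1 is not reported here. Promoters came from RefSeq (GRCm38.p6), with GCGTG searched on both strands.

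Equal replicate numbers deviated together (correlations of 0.572, 0.369 and 0.207 between genotypes over genes). Differences between equal numbers are given as a description and do not establish that the arrays were paired. The reported results come from a model with no replicate term, as the submitters state none, and a blocked model was an alternative. What the numbers stand for is not given in the labels, and unequal numbers 2 and 3 also correlated (0.236 and 0.336), above the 0.207 of equal number 3. Alternatives were the replicate number as a block, repeated quantile normalization, median centring, a filter on dim genes, all probe sets, the mean of probe sets, array weights, eBayes with trend and robust, the keratinocyte covariate, leaving out each array, and a limit at the 99th percentile.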

Additional observations from a re-analysis of the deposited data

How the results depend on the processing

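Limma called 638 genes. With the replicate block it called 1538, with array weights 1716 and with the keratinocyte marker covariate 1845, and all 638 were among each of these. Leaving out each array in turn gave 342 to 644 calls, with 342 without Ahr-ko replicate 3, 355 without Ahr-het replicate 2 and 371 without Ahr-het replicate 3. An alternative chosen after seeing the data, without both replicate 1 arrays, gave 1147. The 3 calls among the 9 members other than Ptprs became 5 with the keratinocyte covariate and 1 to 2 with an array left out (1 without Ahr-ko replicate 3), and the 4 receptor PTP genes past the threshold (3 and Ptprs, which carries no test here) became 2 to 3 with an array left out (2 without Ahr-ko replicate 3). The replicate block changed no call of a member. The difference of Ptprs stayed between -2.37 and -2.31 in 16 alternatives, and that of Ptprf between -2.21 and -1.79 with its call kept in all 16. The near-zero differences changed sign. Ptprd came to -0.083 with array weights, -0.061 to 0.063 with an array left out and -0.087 without both replicate 1 arrays, and Ptprj to 0.13 with the keratinocyte covariate and -0.17 to 0.072 with an array left out. The cause of these shifts was not tested. Ptprd, Ptpro and, in Ahr-ko, Ptprf lay near the background limit, which limits how low their values could be measured.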
